A study of Homo sapiens with 33 samples.

Results

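The IL6 cytokine family was examined here as 10 genes of the 58302 in the expression matrix, chosen by name: the ligands IL6, IL11, LIF and CLCF1, the receptor subunits IL6R, IL6ST, OSMR and LIFR, and the intracellular proteins SOCS3 and STAT3. The RNA-seq libraries come from 6 established human cell lines cultured in RPMI medium with serum and treated with palbociclib, an inhibitor of the cell cycle kinases CDK4 and CDK6, or with its vehicle DMSO. H2052 (2 pairs of DMSO and palbociclib libraries), H2452, H28 and MSTO-211H (3 pairs each) are malignant pleural mesothelioma (MPM) lines that the study classed as sensitive to the drug, MPP89 (2 pairs) is a resistant MPM line, and MeT-5A (1 pair and 1 untreated library) is a resistant line of normal mesothelial cells immortalized by SV40. Palbociclib was given at 1 µM for 9 or 10 days, and each sensitive line has 1 further library in which 10 days of drug were followed by 48 h without it (washout). Each pair is 1 experiment, and each group stands for the cells of a single line.

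Most cytokines of the IL6 family, including the 4 ligands examined here, signal through IL6ST, the transducing subunit that they share. IL6 and IL11 first bind their own alpha receptors (IL6R and IL11RA), LIF pairs IL6ST with LIFR, and oncostatin M pairs it with OSMR. The receptor complex activates JAK kinases and the transcription factor STAT3, and SOCS3, which STAT3 induces, shuts the receptor off again. IL6 is also a well known secreted product of senescent cells, and mesothelial and mesothelioma cells are known to release it.

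Levels are given in CP20M, the reads of a gene scaled by the authors to a library size common to all samples and rounded up to whole numbers. Column totals of 20007662 to 20021400 hide the sequencing depth, but in 23 of the 33 libraries the whole numbers that never occur put it between 12770000 and 19820000 reads, so that 1 read was worth 1.01 to 1.57 CP20M. Values below about 10 CP20M therefore rest on a few reads. All 10 genes passed the filter on low values (100 CP20M in at least 1 of the 33 libraries, 17803 genes), although IL11 passed only through MPP89 and MeT-5A, its highest value in the sensitive lines being 77 CP20M. Changes are differences of log2(CP20M + 10), a scale that understates those of low genes, and a gene was called where limma gave an adjusted p under 0.05 and the change exceeded 1.5-fold in either direction. In bulk libraries, fewer cells with a transcript and less of it per cell cannot be told apart.

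The label of mesothelial cells was checked against 9 marker genes. The keratins KRT8 and KRT18 were high in every line (at least 3480 and 1497 CP20M). In contrast, MSLN reached only 15 and CALB2 only 2 CP20M in H28, and WT1 reached only 2 CP20M in MeT-5A. KRT19 reached only 10 CP20M in MSTO-211H, 13 in MPP89 and 3 in MeT-5A. PDPN reached only 4 CP20M in H28 and 3 in MSTO-211H, and UPK3B only 11 in H2052. KRT5 did not exceed 22 CP20M in any line. Apart from KRT8 and KRT18, every marker was thus low in some line. Leukocyte markers, which matter for a cytokine family, were mostly low: CD3E was at 0 in every DMSO, palbociclib and washout library, and PTPRC reached 6 CP20M at most in the sensitive lines. The 7 leukocyte genes summed to 181 to 1695 CP20M in DMSO and 271 to 2446 CP20M in palbociclib libraries of the sensitive lines, with CD68 at up to 1844 CP20M and CD14 at up to 1130 in H2452. Their part in the results below was not tested.

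In DMSO the lines differed widely in all 10 genes. Each of the 10 passed an F test of the level among the 6 lines (limma adjusted p from 2.13e-09 for LIFR to 0.00429 for IL6R), as did 95.6% of all genes tested, so that differing between these lines is usual. LIFR spanned the widest range, from a mean of 298 CP20M in H2452 to 9909 in MeT-5A, which is a 32.2-fold difference with 10 added to both values. CLCF1 spanned the narrowest, from 116 CP20M in MSTO-211H to 394 in H28.

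By their means in DMSO, the ligands were highest in different lines, apart from LIF and CLCF1, which were both highest in H28. For CLCF1 the libraries of H28 (341 to 427 CP20M) overlapped with those of MPP89 (374 to 394), and the untreated MeT-5A library had 466. IL6 was highest in MPP89 (236 CP20M ± 48.8, SD, n = 2) and H2052 (178 ± 158, n = 2), whose libraries overlapped, followed by H2452 (23.7 ± 14, n = 3) and MSTO-211H (10.3 ± 4.04, n = 3), which also overlapped. It was all but absent from MeT-5A (4 CP20M) and H28 (0, 0 and 2 CP20M). IL11, a ligand known from bone and fibrosis, was highest in the resistant lines, at 428 CP20M in MeT-5A (788 in the untreated library) and 362 ± 74.2 in MPP89, against 74 ± 4.24 in H2052 and 14.7 to 23.7 in the other sensitive lines, whose libraries overlapped. LIF, named for its effect on leukaemia cells, had a different order, with its highest and its lowest mean both in sensitive lines. H28 had 5766 CP20M ± 1309 (n = 3) and MSTO-211H 1995 ± 446, and their libraries did not overlap. Neither line overlapped with H2052 (990 ± 260), MPP89 (646 ± 281), MeT-5A (265) or H2452 (253 ± 82.7).

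Among the receptors, IL6ST was highest in H2452 (16086 CP20M ± 1133) and H2052 (15005 ± 652), which overlapped, and lowest in H28 (2406 ± 229). OSMR had nearly the same order, from 5469 ± 505 CP20M in H2452 to 1042 ± 79.8 in H28. LIFR did not: it was high in MeT-5A (9909), MPP89 (3579 ± 649) and H2052 (2892 ± 192) and low in H28 (328 ± 38.4) and H2452 (298 ± 55.3). H28, the line richest in LIF, was thus among those poorest in its receptor. IL6R was below 700 CP20M in every library, with line means from 92.5 ± 17.7 (MPP89) to 499 ± 189 CP20M (H2452). SOCS3 ranged from 328 CP20M in MeT-5A to 1486 ± 204 in MPP89, and STAT3 from 1915 ± 192 CP20M in H28, with 1922 in MeT-5A within its range, to 7259 ± 1070 in H2452.

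**Figure D1:**
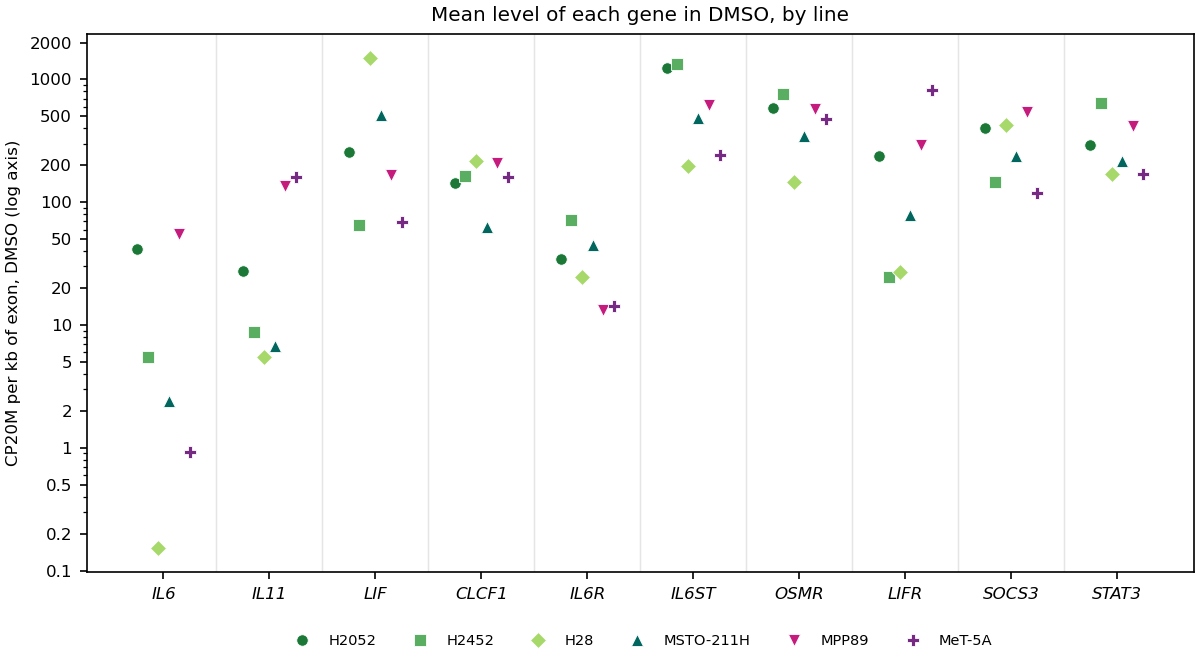
Mean level in DMSO of the 10 genes, in CP20M per kb of annotated exon on a log axis, with 1 symbol for each of the 6 lines (means of 1 to 3 libraries). LIF reached 1490 CP20M per kb in H28, while IL6 stayed at 0.154 in that line.

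To compare genes with each other, levels were divided by exon length. LIF was the highest of the 4 ligands per kb in 23 of 33 libraries, and in none of the MeT-5A libraries. CLCF1, a ligand of the ciliary neurotrophic factor receptor, was highest in 9 libraries and IL11 in 1, the untreated MeT-5A library, and IL6 in none. IL6ST was the highest receptor per kb in 26 libraries, OSMR in 4 and LIFR in the 3 libraries of MeT-5A (815 CP20M per kb in DMSO). IL6R had the lowest mean of the 4 receptors per kb in DMSO in every line other than H2452, where LIFR was lower (24.5 against 71.4), for example 34.8 against 1244 for IL6ST in H2052.

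With palbociclib, 3 of the 10 genes were called higher and 1 lower over the 11 pairs of the sensitive lines, where 5.58% of all genes were called higher and 9.37% lower. The ligand IL6 and the receptors IL6ST and OSMR rose, and the ligand IL11 fell. This fit took the 11 pairs as replicates, with no term for differences in response between lines. The median log2 fold change of the 10 genes was 0.28, against -0.11 over all genes. This background depends on scaling: of the genes called, 37.3% were higher on the deposited scale, 63% after median-of-ratios scaling and 54.7% after upper-quartile scaling, while the 4 calls held under both. Treatment lasted 9 days in 7 of these pairs and 10 days in the other 4, and the mean changes of IL6, IL6ST and OSMR were 1.41, 0.71 and 0.72 in the pairs of 9 days and 1.3, 0.58 and 0.74 in those of 10 days. IL11 had -0.87 and -1.5, and SOCS3 -0.01 and -0.55. These differences between durations were not tested.

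IL6 rose from a mean of 41.9 to 147 CP20M (log2 fold change 1.37 ± 0.27, SE, 11 pairs, limma adjusted p = 0.00117), with single pairs from 0.49 to 3.19. In MSTO-211H the DMSO libraries had 6, 14 and 11 CP20M and the palbociclib libraries of the same experiments 19, 209 and 150. In H2052 it went from 67 and 290 to 426 and 623 CP20M, and in H2452 from 9, 25 and 37 to 22, 96 and 58. These groups did not overlap in MSTO-211H and H2052 but did in H2452. In H28 the values were 0, 0 and 2 CP20M in DMSO and 4, 4 and 9 with palbociclib, also apart but resting on a few reads. IL6 was higher in 11 of 11 pairs, yet it was called in no single line (limma adjusted p from 0.0273 to 0.0657, the lowest in H28, where the fold was under 1.5), and with the 4 line means as units the call was lost (1.41 ± 0.47, limma adjusted p = 0.089). Its fitted change moved from 0.82 to 2.08 as the pseudocount went from 50 to 1.

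IL11 moved the opposite way, and 10 of 11 pairs had IL6 higher and IL11 lower. IL11 went from 71 and 77 to 16 and 18 CP20M in H2052, and from 26, 22 and 23 to 3, 5 and 3 CP20M in H2452. In MSTO-211H it went from 17, 14 and 23 to 2, 11 and 4 CP20M. In these 3 lines no palbociclib library reached a DMSO library. H28 was mixed, with 10, 3 and 31 CP20M in DMSO and 2, 5 and 2 with palbociclib, its second experiment being the only pair with a higher value. Over the 11 pairs IL11 fell by 1.1 on the log2 scale (SE 0.17, limma adjusted p = 0.000224). With 50 as the pseudocount the fold fell under 1.5 (-0.44, limma adjusted p = 0.000911), and with the filter applied to the libraries of the sensitive lines alone IL11 was not tested.

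The sequence before the starts of IL6 and IL11, which moved in opposite directions, is shown. Whether it has a part in these changes was not tested. IL6 lies at chr7:22725884-22732002 on the plus strand and IL11 at chr19:55364382-55370463 on the minus strand (GENCODE 44, GRCh38). The RefSeq promoter table (GRCh38.p14) held 11 windows for 8 of the 10 genes, with LIF and CLCF1 unmatched, and the 250 bases before each start were searched on both strands for 4 motifs: AP-1 (TGANTCA), STAT (TTCNNNGAA), C/EBP (TTGCNNAA) and the NF-kB motif. The IL6 stretch is chr7:22726950-22727146 on the plus strand, which lies inside the annotated gene between an upstream exon and the next exon, at which it was cut short, and the IL11 stretch is chr19:55370464-55370713 on the minus strand. Both are 5′ to 3′, with motif matches in capitals.
IL6: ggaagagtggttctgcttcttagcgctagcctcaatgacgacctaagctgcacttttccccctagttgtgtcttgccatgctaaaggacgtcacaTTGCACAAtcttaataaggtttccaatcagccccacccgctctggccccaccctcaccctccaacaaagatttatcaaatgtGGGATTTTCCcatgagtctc
IL11: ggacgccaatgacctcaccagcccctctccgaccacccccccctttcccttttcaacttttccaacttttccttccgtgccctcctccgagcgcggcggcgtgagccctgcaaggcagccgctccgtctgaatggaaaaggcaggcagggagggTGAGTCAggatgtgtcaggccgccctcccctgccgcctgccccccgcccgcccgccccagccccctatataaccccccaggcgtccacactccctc
The IL6 window holds a C/EBP match 155 to 148 bases and an NF-kB match 73 to 64 bases before the RefSeq start. The IL11 window holds an AP-1 match 96 to 90 bases before it, and none of the other 3 motifs. Of the other windows, OSMR has a C/EBP match, IL6ST an NF-kB match, and LIFR 2 STAT matches and a C/EBP match. Among all 35116 promoter windows of this length, 6.57% hold the AP-1 motif, 6.57% the STAT motif, 9.05% the C/EBP motif and 9.96% the NF-kB motif. A match describes the letters and not a bound factor.

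LIF and CLCF1 were not called over the 11 pairs (log2 fold change 0.22 ± 0.11, limma adjusted p = 0.126, and -0.1 ± 0.16, limma adjusted p = 0.645). LIF was called higher in 2 lines: in H2052 it went from 806 and 1174 to 1238 and 1816 CP20M, and in H2452 from 209, 201 and 348 to 366, 259 and 546 CP20M. In H28, where it was most abundant, it was 4914, 5112 and 7273 CP20M in DMSO and 5099, 4199 and 5628 with palbociclib, and the groups overlapped. In MSTO-211H the log2 fold change was -0.01 ± 0.11. CLCF1 was called lower in H2452, from 314, 356 and 232 to 165, 277 and 122 CP20M, where the groups overlapped although each pair dropped. CLCF1 shares 61 bases of exon on its own strand with a second gene, ENSG00000256514, which had 282 to 1023 CP20M, so that reads of the shared part cannot be assigned.

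**Figure D2:**
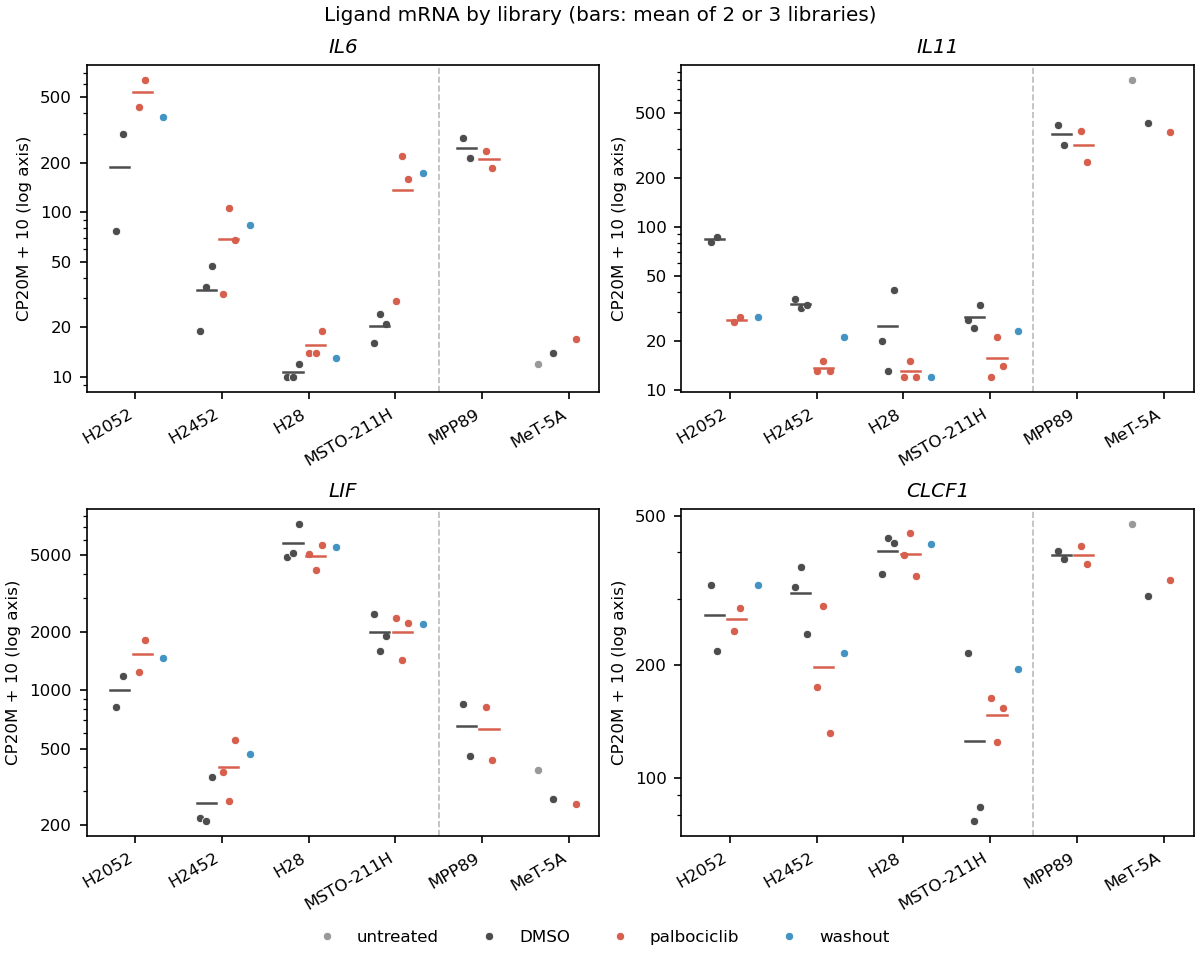
Level of the 4 ligands in each library, as CP20M + 10 on a log axis, by line (sensitive lines left of the dashed line) and condition (colours); short bars are means of 2 or 3 libraries. With palbociclib IL6 reached 623 CP20M in H2052, while IL11 dropped from 71 and 77 to 16 and 18 CP20M there and stayed at 242 and 377 CP20M in MPP89.

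OSMR, the oncostatin M receptor, had the most even change of the family. The DMSO and palbociclib libraries were apart in all 4 sensitive lines. In H2052 it went from 3376 and 5083 to 6590 and 7408 CP20M, and in H2452 from 5148, 5209 and 6051 to 8553, 7813 and 10835 CP20M. In H28, at a lower level, it went from 1018, 977 and 1131 to 1504, 1452 and 1827 CP20M. In MSTO-211H its DMSO libraries had 2469 CP20M ± 21.4 (SD, n = 3) and its palbociclib libraries 3969, 4691 and 4634. The log2 fold change over the 11 pairs was 0.73 ± 0.05 (limma adjusted p = 9.93e-07, higher in 11 of 11 pairs), with single pairs from 0.54 to 0.96. The call held under all 24 alternatives tried, with values from 0.68 to 0.9. With line means as units it was 0.73 ± 0.16 (limma adjusted p = 0.0412).

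IL6ST also rose in 11 of 11 pairs (0.67 ± 0.13, limma adjusted p = 0.000871), but very unequally. MSTO-211H went from 6184, 5708 and 5770 to 12135, 16656 and 15127 CP20M. H2052 went from 14544 and 15466 to 23199 and 23380 CP20M. H2452, which started highest, went only from 15927, 15040 and 17290 to 17837, 19543 and 19146 CP20M, and H28 from 2148, 2483 and 2586 to 3271, 3945 and 2987. The groups were apart in each of the 4 lines. The call depended on MSTO-211H: without that line the log2 fold change was 0.43 (SE 0.08, limma adjusted p = 0.002), under 1.5-fold. It was also lost without the second MSTO-211H experiment (0.58) and with line means as units (0.66 ± 0.21, limma adjusted p = 0.0814).

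IL6R, which gives IL6 its specificity, had a pooled change near 0 (-0.05 ± 0.28, limma adjusted p = 0.886) that hid opposite changes of single lines. In H2052 it fell from 254 and 233 to 76 and 68 CP20M (log2 fold change -1.63 ± 0.16, limma adjusted p = 0.0376). In H28 it rose from 115, 124 and 273 to 340, 320 and 627 CP20M (1.32 ± 0.12, limma adjusted p = 0.0266). Within each of these lines the groups did not overlap. H2452 hardly differed, with 651, 288 and 558 CP20M in DMSO and 624, 295 and 559 with palbociclib, each palbociclib value close to that of its own experiment. MSTO-211H had 526, 212 and 200 against 377, 149 and 159 CP20M, lower in 3 of 3 pairs but not called (limma adjusted p = 0.0985).

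LIFR was higher in 8 of 11 pairs but was not called over them (log2 fold change 0.35 ± 0.14, limma adjusted p = 0.0562). After median-of-ratios and upper-quartile scaling its change was 0.52 and 0.47 (limma adjusted p = 0.00714 and 0.013), under 1.5-fold. It was called in MSTO-211H, where it went from 1141, 874 and 847 to 1932, 1913 and 2315 CP20M (log2 fold change 1.11 ± 0.16, limma adjusted p = 0.0362). In H2052, H2452 and H28 its changes were 0.2 ± 0.07, -0.1 ± 0.09 and 0.16 ± 0.12 and passed no threshold. LIFR and OSMR are neighbours on chromosome 5, their annotated ends 237504 bases apart, yet OSMR was higher with palbociclib in every pair of all 4 lines.

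STAT3 was higher in 11 of 11 pairs, with a limma adjusted p of 0.000952 but a change below 1.5-fold (0.47 ± 0.09), and so was not called. It was called in MSTO-211H, from 2406, 2658 and 2221 to 4122, 4245 and 5273 CP20M (0.9 ± 0.14, limma adjusted p = 0.0387). After median-of-ratios and upper-quartile scaling its pooled change was 0.64 and 0.59 and was called. SOCS3, the feedback inhibitor, was not called over the 11 pairs (-0.2 ± 0.18, limma adjusted p = 0.374), and like IL6R it differed in direction between lines. In H2452 it fell from 342, 364 and 484 to 243, 244 and 216 CP20M (limma adjusted p = 0.0437). In H2052 it was 883 and 1297 against 574 and 486 CP20M, apart but not called (limma adjusted p = 0.0657). In MSTO-211H it was 578, 523 and 871 against 1082, 700 and 995 CP20M, and in H28 1085, 817 and 1567 against 1266, 847 and 1747 CP20M, higher in each pair with overlapping groups.

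**Figure D3:**
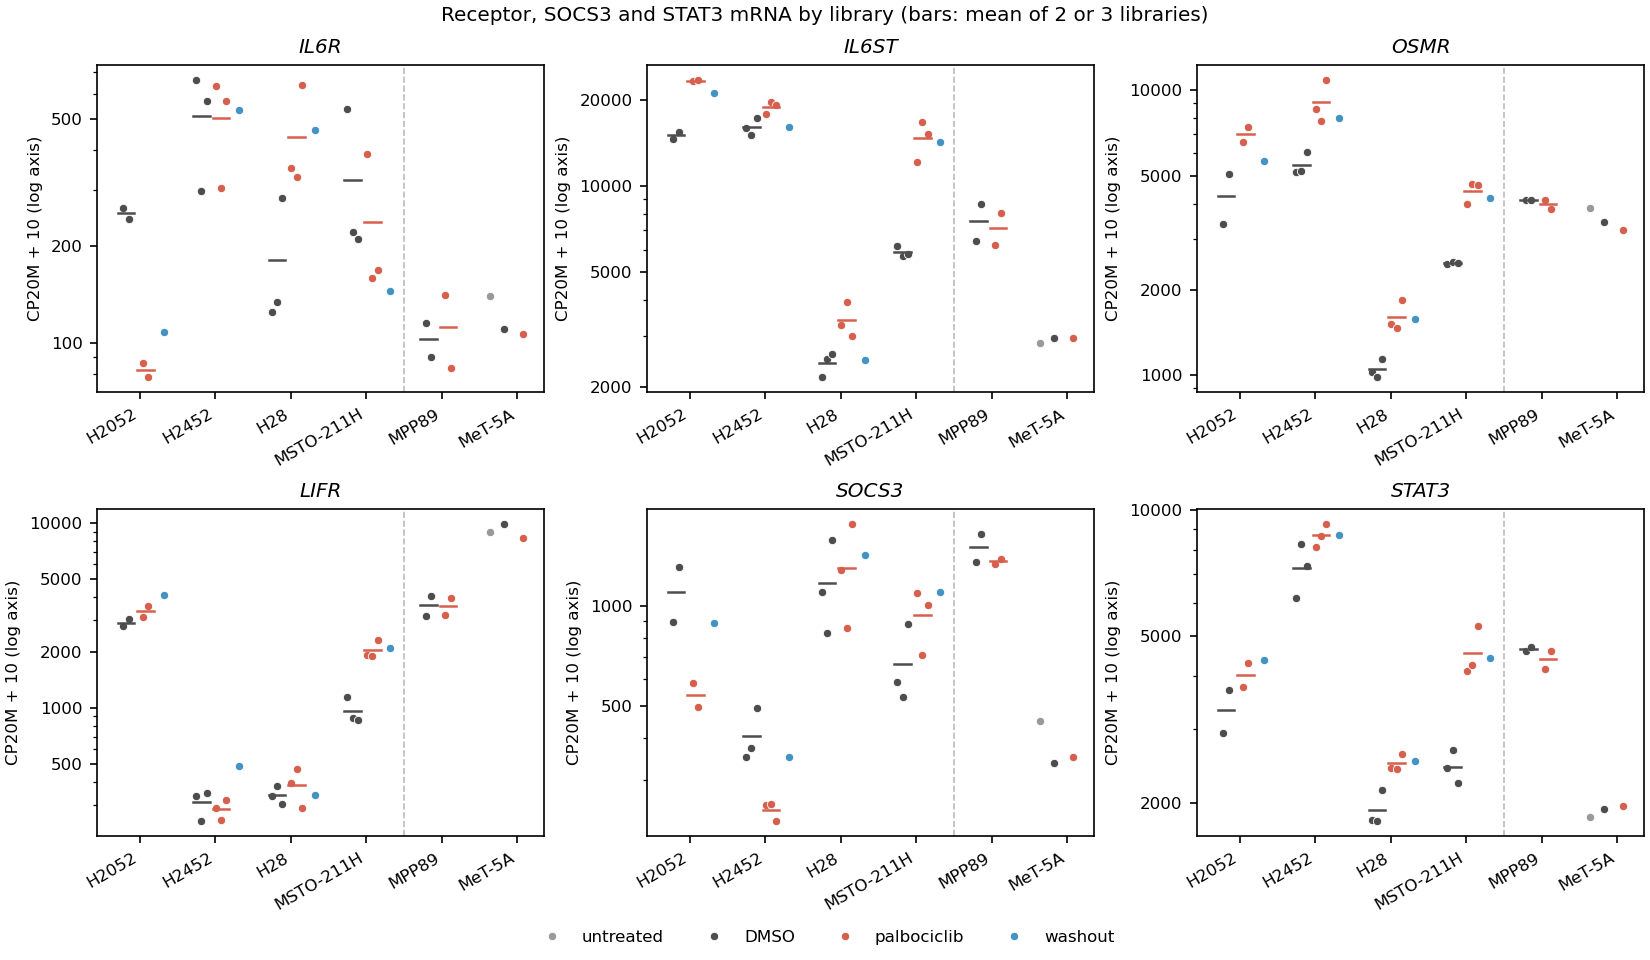
Level of the 4 receptor subunits, SOCS3 and STAT3 in each library, as CP20M + 10 on a log axis, by line (sensitive lines left of the dashed line) and condition (colours); short bars are means of 2 or 3 libraries. IL6R drops in H2052 (254 and 233 to 76 and 68 CP20M) and rises in H28, while every palbociclib library of the 4 sensitive lines lies above DMSO for OSMR.

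Read line by line, each line had its own combination. In H2052, 1 of the 10 genes was called higher (LIF; 4.67% of all genes) and 2 lower (IL11 and IL6R; 13% of all genes). In H2452, 2 were called higher (LIF and OSMR; 6.04% of all genes) and 3 lower (IL11, CLCF1 and SOCS3; 10.8% of all genes). In H28, 2 were called higher (IL6R and OSMR; 5.89% of all genes) and none lower, where 7.34% of all genes were, and 5 of the 10 had an unadjusted p under 0.05. In MSTO-211H, 4 were called higher (IL6ST, OSMR, LIFR and STAT3; 5.9% of all genes) and none lower, where 7.94% of all genes were, and 8 of the 10 had an unadjusted p under 0.05. With 2 or 3 pairs these calls have little power to spare. Leaving out any of the 3 experiments of H28 or of MSTO-211H left none called in that line, among the 10 or among all genes. The same held without the first or the third experiment of H2452. Since no gene at all passed, these fits cannot show whether the call of a family gene rests on 1 experiment.

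The responses of the 4 sensitive lines differed, by an F test on the line-by-treatment terms, for 6 of the 10 genes, against 37.1% of all genes. IL6R had the lowest limma adjusted p (1.93e-05), followed by LIFR (0.0023), SOCS3 (0.00386), IL6ST (0.00426), LIF (0.0053) and STAT3 (0.0219). IL6 (0.0815), CLCF1 (0.0918), IL11 (0.363) and OSMR (0.471) did not pass. For OSMR, line means of the log2 fold change lay between 0.6 and 0.84.

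**Figure D4:**
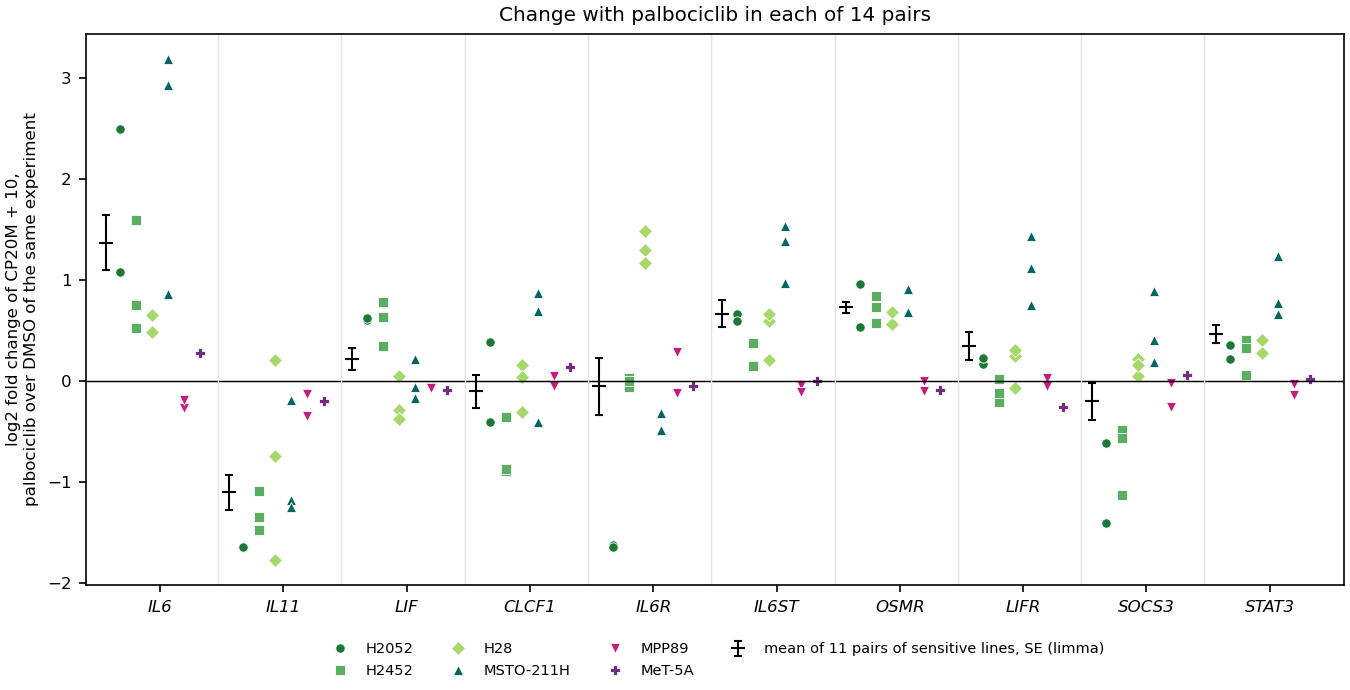
Log2 fold change of CP20M + 10 with palbociclib over DMSO of the same experiment, for the 10 genes in each of 14 pairs, with symbols by line; black marks are the mean of the 11 pairs of sensitive lines and its standard error from limma. OSMR pairs of sensitive lines lie between 0.54 and 0.96, IL6R pairs between -1.64 and 1.49, and pairs of MPP89 and MeT-5A stay near 0.

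In the resistant lines none of the 10 genes was called over 3 pairs, nor was any other gene (0% of genes tested), and 1258 genes, IL11 among them, had an unadjusted p under 0.05 in limma. IL6 was 271 and 202 CP20M in DMSO and 224 and 176 with palbociclib in MPP89, and 4 and 7 CP20M in MeT-5A. IL11 was lower in 3 of 3 pairs, from 414 and 309 to 377 and 242 CP20M in MPP89 and from 428 to 372 CP20M in MeT-5A (log2 fold change -0.22 ± 0.07, limma adjusted p = 0.689). The other 8 genes had log2 fold changes between -0.09 and 0.05. OSMR had 4117 CP20M in both DMSO libraries of MPP89 and 4115 and 3831 with palbociclib, while other genes differed between these DMSO libraries, such as LIF with 845 and 447 CP20M. In MPP89 alone, 0% of genes were called, 918 genes had an unadjusted p under 0.05, and the 10 genes were not among them.

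A direct test of the change between the classes passed for 1 of the 10 genes, OSMR, whose change was larger in the sensitive lines (difference 0.79 ± 0.11, limma adjusted p = 0.000944), where 1.56% of all genes differed in this direction and 7.81% in the other (278 and 1390 genes, but 710 and 578 after median-of-ratios scaling). For IL6 the difference was as large as 1.43 but with an SE of 0.55 (limma adjusted p = 0.11), and for IL11 it was -0.88 ± 0.35 (limma adjusted p = 0.122). IL6ST (0.72 ± 0.25, limma adjusted p = 0.0848) and STAT3 (0.52 ± 0.18, limma adjusted p = 0.0815) also missed the threshold. The calls of IL6, IL11 and IL6ST in the sensitive lines therefore do not show a difference between the classes. This test took the 14 pairs as replicates, with no term for differences between lines within a class. Its p-values thus rest on pairs and not on lines as independent units. No fit with line means as units was run for this difference.

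Washout was compared within the experiment that gave each washout library, with 1 DMSO, 1 palbociclib and 1 washout library per line, so that the 4 lines were the replicates and the comparisons share libraries. In these experiments, palbociclib libraries had 2 genes called higher than DMSO (IL6 and OSMR; 5.3% of all genes) and 1 lower (IL11; 13.3% of all genes), and with any of the 4 lines left out 1 was called higher and 1 lower. Between washout and palbociclib none of the 10 genes was called in either direction, where 1.4% of all genes were called higher and 0% lower. Of the 10, 1 (OSMR) had an unadjusted limma p under 0.05, beside 2322 of all 17803 genes. Between washout and DMSO, IL11 was called lower (2.95% of all genes) and none was called higher (2.81% of all genes). In that comparison 5 of the 10, IL11 included, had an unadjusted limma p under 0.05, beside 5265 of all 17803 genes.

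IL6 was still above DMSO in 4 of 4 lines after 48 h without drug (log2 fold change 1.08 ± 0.43, limma adjusted p = 0.129). In MSTO-211H it was 11 CP20M in DMSO, 150 with palbociclib and 163 after washout, and in H2452 37, 58 and 74. In H2052 it was 290, 623 and 370 CP20M. In H28 it was 2, 9 and 3 CP20M, values that rest on a few reads and do not show that IL6 stayed raised there. MSTO-211H and H2452 were thus at or above the palbociclib value, and H2052 and H28 between it and DMSO.

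IL11 was below DMSO in 4 of 4 lines (-1.15 ± 0.22, limma adjusted p = 0.0141). H2052 had 77 CP20M in DMSO and 18 both with palbociclib and after washout, and H28 had 31, then 2 and 2. In H2452 and MSTO-211H it had come part of the way back, with 23, 3 and 11 CP20M and with 23, 4 and 13 CP20M. The call was lost without H2052 (-0.98, limma adjusted p = 0.0883) or without H28 (-0.94, limma adjusted p = 0.0579).

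OSMR was below the palbociclib value and above DMSO in 4 of 4 lines. In MSTO-211H the DMSO, palbociclib and washout libraries had 2462, 4634 and 4166 CP20M, and those of H2452 had 6051, 10835 and 7948. H2052 had 5083, 7408 and 5657 CP20M, and H28 had 1131, 1827 and 1573. Against palbociclib the change was -0.3 ± 0.1 (limma adjusted p = 0.215), and against DMSO 0.44 ± 0.1, with a limma adjusted p of 0.0236 but under 1.5-fold. IL6ST was below palbociclib in 4 of 4 lines as well, with washout values above DMSO in H2052 (21081 against 15466 CP20M) and MSTO-211H (14269 against 5770) and below it in H2452 (16057 against 17290) and H28 (2455 against 2586). SOCS3 in H2052 went from 1297 to 486 and back to 875 CP20M. STAT3 and LIFR were above DMSO in 4 of 4 lines (0.43 ± 0.16 and 0.59 ± 0.22, limma adjusted p = 0.107 and 0.113).

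**Figure D5:**
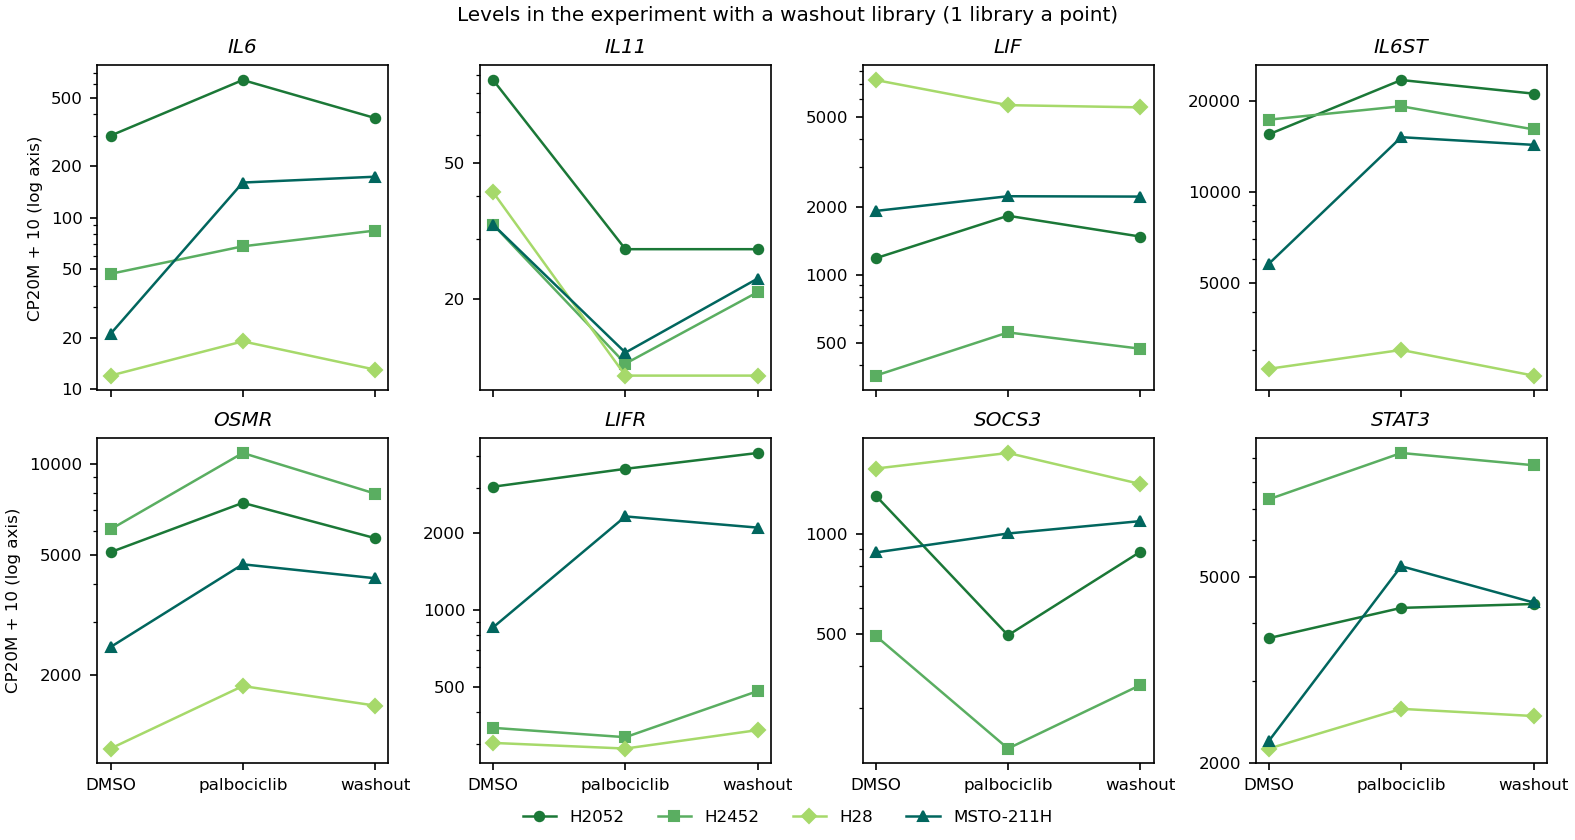
Levels of 8 family genes in the experiment of each sensitive line that has a washout library, as CP20M + 10 on a log axis; each point is 1 library, and lines join DMSO, palbociclib and washout of a cell line. OSMR has its peak in the palbociclib library of all 4 lines, while IL11 after washout is at its palbociclib value in H2052 (18 CP20M) and H28 (2) and between palbociclib and DMSO in H2452 (11) and MSTO-211H (13).

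The level of proliferation genes also changed with palbociclib and with washout. The summed level of 5 proliferation genes (MKI67, TOP2A, CCNA2, CCNB1 and MCM2) was 7858 to 26748 CP20M in DMSO, 1604 to 7649 with palbociclib and 11620 to 20553 after washout in the sensitive lines, and 25265 to 33430 in DMSO and 26101 to 34303 with palbociclib in the resistant lines. All 5 were called lower with palbociclib in the sensitive lines, and after washout 4 of them were called higher than with palbociclib. Against DMSO the 5 had log2 fold changes from -0.33 to -0.68 after washout, and 0 were called. IL11 after washout differed from palbociclib by 0.35 ± 0.22 (limma adjusted p = 0.565) and from DMSO by -1.15 ± 0.22 (limma adjusted p = 0.0141). The part of proliferation in the changes of the cytokine family was not tested.

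The rest of the pathway was described in the sensitive lines by further gene lists, to be read against the 5.58% of all genes called higher, the 9.37% called lower and the median of -0.11. OSM, the ligand of OSMR, was at 0 to 26 CP20M over all libraries and did not reach the filter. None of the 4 other receptors (IL11RA, CNTFR, IL27RA and IL31RA) was called (median -0.06), nor was either shedding protease (ADAM10 and ADAM17, median 0.02). IL11RA, which IL11 needs, differed by -0.06 ± 0.15. Of 7 other negative regulators (SOCS1, SOCS2, CISH, PIAS3, PTPN2, PTPN6 and PTPN11) none was called, and their median was -0.3. The smallest adjusted p among these lists was that of the phosphatase gene PTPN2 (-0.56 ± 0.08, limma adjusted p = 0.000154), which was under 1.5-fold.

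Of 20 genes known as STAT3 targets, 17 were tested, 3 were called higher and 1 lower, and the median was 0.15, beside 5.58% higher, 9.37% lower and a median of -0.11 over all genes. TIMP1, a metalloprotease inhibitor, rose in 11 of 11 pairs (1.1 ± 0.13, limma adjusted p = 2.39e-05), with medians of 1087 CP20M in DMSO and 1986 with palbociclib. The acute-phase genes SAA2 (1.42 ± 0.29, limma adjusted p = 0.00148) and SAA1 (1.15 ± 0.3, limma adjusted p = 0.00639) rose from medians of 3 and 7 CP20M to 32 and 41, but these are near-identical neighbours that can share reads. PIM3, a kinase gene, was not higher in 10 of 11 pairs and fell overall (-0.82 ± 0.14, limma adjusted p = 0.000306), with medians of 1890 and 982 CP20M. After washout TIMP1 was still called higher than DMSO (0.95 ± 0.17, limma adjusted p = 0.0104), while SAA2 (1.14 ± 0.41), SAA1 (1.31 ± 0.45) and PIM3 (-0.68 ± 0.25) were not called (limma adjusted p = 0.102, 0.086 and 0.103).

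The 3 genes whose log2 fold changes over the 14 pairs were most like those of IL6, by Pearson's r, were AC073072.1 (0.946), SLPI (0.932), which encodes a secreted protease inhibitor, and IFNAR1 (0.914), a subunit of the type I interferon receptor. These correlations run over pairs that share lines and are descriptions only. AC073072.1 is the gene ENSG00000179428, annotated as IL6-AS1 in GENCODE 44, and lies on the opposite strand over 9.91% of the exon length of IL6, with at most 135 CP20M. The library kit keeps the strand, but the strand setting of the counting is not given in the sources used here, so it is open whether the reads of both genes were kept apart. SLPI spanned log2 fold changes from -0.07 to 4.19, with levels from 0 to 475 CP20M. IFNAR1 spanned only -0.04 to 0.73, at 1030 to 3026 CP20M. Among the receptors, OSMR shares 3.19% of its exon length with RICTOR and IL6ST 6.61% with a noncoding gene, ENSG00000262211, both on the opposite strand.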

How the data were processed

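The authors sequenced directional paired-end libraries, mapped reads with STAR to GRCh38 with Ensembl annotation, counted genes with HTSeq and deposited a score, CP20M, rounded up to whole numbers; tools named in the submitters' notes include Trimmomatic 0.36, STAR 2.5.3, HTSeq 0.9.1 and DESeq2. Because the rounded scale is no raw count, no count model was used. Each test was a linear model in limma 3.58.1 (R 4.3.3) with a trended prior on the log2 scale, 10 being added first, over 17803 genes, with Benjamini-Hochberg adjustment over all of them and the experiment as a block, as the study paired its samples. Deviations of same-numbered DMSO and palbociclib libraries from group means correlated with r from 0.181 to 0.783 in 13 pairs. Interaction and F tests were called on adjusted p alone. The scripts were tested on simulated data.

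All 10 members are named, up to 4 called genes of each pathway list with the largest change, and the 3 genes most like IL6. Some listed genes, and the lists whose results turn on them, are not reported here. Members and lists were chosen with earlier results of these data known. PTPN2, CD14, CD68 and other marker genes were named after their values were seen. Alternatives were other pseudocounts, filters and scalings, no block, no trend, a single fit of all lines, line means, and leaving out experiments or lines. Exon lengths and overlaps come from GENCODE 44, a later annotation than the Ensembl release the authors used.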

Additional observations from a re-analysis of the deposited data

Results flagged for a closer look

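The change of OSMR with palbociclib differed between the sensitive and the resistant lines by the interaction test (limma adjusted p = 0.000944), with pairs and not lines as replicates. It was higher in 11 of 11 pairs of sensitive lines and in 0 of 3 pairs of resistant lines.

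Among the 4 sensitive lines, 6 genes of the family were picked out because the F test on their changes passed. For IL6R (limma adjusted p = 1.93e-05), the mean log2 fold change ran from -1.63 in H2052 to 1.32 in H28. For SOCS3 (limma adjusted p = 0.00386), it ran from -1.01 in H2052 to 0.5 in MSTO-211H. For LIF (limma adjusted p = 0.0053), it ran from -0.2 in H28 to 0.62 in H2052. For LIFR (limma adjusted p = 0.0023), IL6ST (limma adjusted p = 0.00426) and STAT3 (limma adjusted p = 0.0219), the largest change was that of MSTO-211H, at 1.11, 1.3 and 0.9, against at most 0.2, 0.63 and 0.37 in the other 3 lines.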

How the results depend on the processing

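Over the sensitive lines IL6 was called under 23 of 24 alternatives, IL11 under 22 of the 23 that tested it, IL6ST under 21 of 24 and OSMR under 24 of 24. The number of family genes called higher was 1 in place of 3 with line means as units, and the number called lower was 0 in place of 1 with a pseudocount of 50 or a filter within the libraries of the fit. Leaving out 1 experiment gave 2 to 3 higher and 1 lower. Uncalled changes turned direction for CLCF1 (0.07 and 0.02 after median-of-ratios and upper-quartile scaling, 0.13 without H2452) and for IL6R (0.11 and 0.06 after these scalings, 0.3 without H2052, 0.08 without MSTO-211H, and -0.21 to 0.1 without 1 experiment). The difference between classes was called higher for 2 genes with a pseudocount of 1 (IL6, 2.01, limma adjusted p = 0.0404), for 3 after either scaling and for 1 to 2 without 1 experiment, and lower for 0 to 1, IL11 without the second H28 experiment (limma adjusted p = 0.0343). The F test among the sensitive lines passed for 5 to 8 genes without 1 experiment.

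In H2052, 1 gene was called higher, and 4 with a pseudocount of 50, a filter within the fit or a single fit of all lines, 3 after either scaling, 0 with no filter or without the trend, and 1 to 4 without 1 experiment. The 2 called lower became 0 with no filter or without the trend, and 1 to 3 without 1 experiment. Where 1 pair of H2052 or MPP89 was left, the spread came from a fit of all lines, so the lone pair was assumed to vary like the others. In H2452, the 2 called higher became 1 with a pseudocount of 50 and 0 to 1 without 1 experiment, and the 3 called lower became 1 after either scaling and 0 to 1 without 1 experiment. Without 1 experiment, 0 were called higher in H28 and 0 in MSTO-211H, but in these fits no gene at all was called. In MSTO-211H a single fit of all lines called 1 lower. Between washout and DMSO, the 1 called lower became 0 with a pseudocount of 50 or a filter within the fit, and 0 to 1 without 1 experiment. Between palbociclib and DMSO in the washout experiments, the 2 called higher became 1 with no filter, 4 after either scaling and 1 in each fit without 1 experiment, and the 1 called lower became 0 with a filter within the fit. No family gene was called in the resistant lines, in MPP89 or between washout and palbociclib under any alternative.

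Without the experiment as a block, the sensitive lines kept 3 genes called higher and 1 lower, and the F test among lines passed for 4 in place of 6. In that fit without the pairing, H2452 had 1 called higher and 2 lower, H28 had 1 higher, and the washout experiments had 0 higher and 0 lower for palbociclib and 0 lower for washout against DMSO. The block changed no other count of family genes.

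Over all genes, the 994 called higher and 1669 lower in the sensitive lines became 1646 and 965 after median-of-ratios scaling, 642 and 1045 with a pseudocount of 50, and 136 and 1335 with line means. The 278 and 1390 of the difference between classes became 531 and 803 after upper-quartile scaling and 179 and 925 with no filter. They fell without any resistant pair: to 24 and 153 without MeT-5A, and to 21 and 173 or 27 and 215 without the first or second MPP89 pair. After median-of-ratios scaling, H2052 went from 832 and 2311 to 1690 and 863, H2452 from 1075 and 1918 to 1799 and 1177, MSTO-211H from 1051 and 1413 to 1330 and 859, washout against DMSO from 500 and 526 to 729 and 283, and the washout experiments from 943 and 2361 to 1763 and 1191. Without the block the 250 genes higher after washout than with palbociclib became 0, and in MPP89 a filter within the fit called 3 genes higher and 1 lower in place of 0. Depth limits values under about 10 CP20M, a few reads, which include IL6 in H28 and MeT-5A and most IL11 values of H2452, H28 and MSTO-211H with palbociclib.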
